A study of Homo sapiens with 5 samples.

Results

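The zinc finger genes of the chromosome 19p12 cluster were followed across 5 cultures of D54, an established human glioma cell line. The 35 genes were taken by name, as the KRAB zinc finger genes of 19p12 and the adjoining part of 19p13.1, and 32 of them had at least 1 row annotated to that gene alone, of 18417 such genes in the table. Where a gene had several such rows, the row with the highest mean over the 5 arrays stood for it. ZNF728 and ZNF98 appeared only in rows shared with other genes. No row named ZNF66, so only its promoter was read and not its signal.

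The cultures fell into 2 groups. In 3 arrays, D54 cells carried an shRNA against TIP-1, a different one for each array. In 2 arrays, D54 cells carried a control shRNA and came from independent clones. Every culture thus carried an shRNA, cells were seeded after trypsin treatment and harvested after a night of growth, and no sample was measured a second time. TIP-1, a protein made of a single PDZ domain, is encoded by TAX1BP3. Whether each TIP-1 shRNA culture was a clone or a mixed population is not given in the sources used here, so a difference between arrays can be one between clones, between shRNAs or between RNA samples, and these cannot be told apart. As bulk values, they also do not separate fewer expressing cells from less RNA per cell.

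KRAB zinc finger proteins are the largest family of human transcription factors. Their zinc fingers bind DNA, often inside transposable elements, and the KRAB domain recruits the co-repressor TRIM28, which brings the histone methyltransferase SETDB1 and HP1 proteins and so places repressive H3K9 methylation. The 19p12 genes arose by repeated tandem duplication in primates, so neighbouring members are close relatives in sequence. ZNF91 and ZNF93 are known for binding SVA and LINE-1 retroelements.

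The start regions of the members held words in common. RefSeq (GRCh38.p14) gave a promoter for 27 of the 35 genes, and the 250 bases before the start were searched for words of 10 letters that most of them hold. The first such word, TCCAATCAGG, which contains a CCAAT box, or its reverse complement, stood in 25 of the 27 genes (92.6%), against 0.33% of 27278 other genes. CTGTCACTCA, the most frequent word that did not overlap it, stood in 22 (81.5%), against 0.308% of other genes. Both words together stood in 20 of the 27, but in 6 of 190 other chromosome 19 ZNF genes with a promoter (3.16%) and in 7 of 216 ZNF genes elsewhere (3.24%). The words were picked from these promoters, so the shares describe the cluster and test nothing. Among all genes with a promoter, members included, the first word stood in 0.421% and the second in 0.388%. The members were also modest in CpG content, with a median of 8 CG dinucleotides per 250 bases, against 17 for other chromosome 19 ZNF genes and 11 over all starts.

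The 5 genes whose signal varied most between the cultures all held both words. So did ZNF208 and ZNF85, whose signal varied least, and 20 of the 27 genes in all. The upstream bases of the 5 are shown because the results turn on these genes, with the words in capitals. They lie on chromosome 19 directly before the annotated start, ZNF486 at chr19:20166964-20167213, plus strand, ZNF730 at chr19:23116775-23117024, plus strand, ZNF90 at chr19:20077750-20077999, plus strand, ZNF100 at chr19:21767580-21767829, minus strand and ZNF681 at chr19:23758892-23759141, minus strand (GRCh38.p14).
ZNF486: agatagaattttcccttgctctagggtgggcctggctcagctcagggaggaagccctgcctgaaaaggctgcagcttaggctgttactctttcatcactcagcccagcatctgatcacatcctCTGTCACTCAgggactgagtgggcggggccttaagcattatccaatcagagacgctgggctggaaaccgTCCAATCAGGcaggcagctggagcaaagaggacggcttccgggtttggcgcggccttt
ZNF730: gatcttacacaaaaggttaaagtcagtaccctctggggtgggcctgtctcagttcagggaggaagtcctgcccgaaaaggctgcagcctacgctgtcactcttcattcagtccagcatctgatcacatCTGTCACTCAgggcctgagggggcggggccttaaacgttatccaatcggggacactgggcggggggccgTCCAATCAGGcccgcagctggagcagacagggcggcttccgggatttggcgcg
ZNF90: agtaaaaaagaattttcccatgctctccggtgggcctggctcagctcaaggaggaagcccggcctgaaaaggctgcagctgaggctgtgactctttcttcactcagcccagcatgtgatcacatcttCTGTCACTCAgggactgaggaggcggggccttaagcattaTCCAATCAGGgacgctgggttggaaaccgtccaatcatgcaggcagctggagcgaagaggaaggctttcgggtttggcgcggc
ZNF100: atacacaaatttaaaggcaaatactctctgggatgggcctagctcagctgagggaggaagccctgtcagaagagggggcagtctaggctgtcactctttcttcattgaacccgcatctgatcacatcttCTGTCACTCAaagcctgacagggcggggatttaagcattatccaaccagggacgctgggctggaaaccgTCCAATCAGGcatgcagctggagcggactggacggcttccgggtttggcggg
ZNF681: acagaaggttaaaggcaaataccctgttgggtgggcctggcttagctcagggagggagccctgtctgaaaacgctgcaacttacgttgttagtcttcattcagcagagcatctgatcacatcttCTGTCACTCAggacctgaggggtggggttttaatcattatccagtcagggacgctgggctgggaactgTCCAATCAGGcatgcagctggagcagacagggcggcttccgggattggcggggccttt
In each of them CTGTCACTCA lay farther from the start than TCCAATCAGG, between 111 and 117 bases from it, against 42 to 73 bases. The same order held in every member with both words, so it was not particular to these 5 genes. The signals of the 5 across the cultures are given below, gene by gene. Any part of the words in those signals was not tested.

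**Figure D1:**
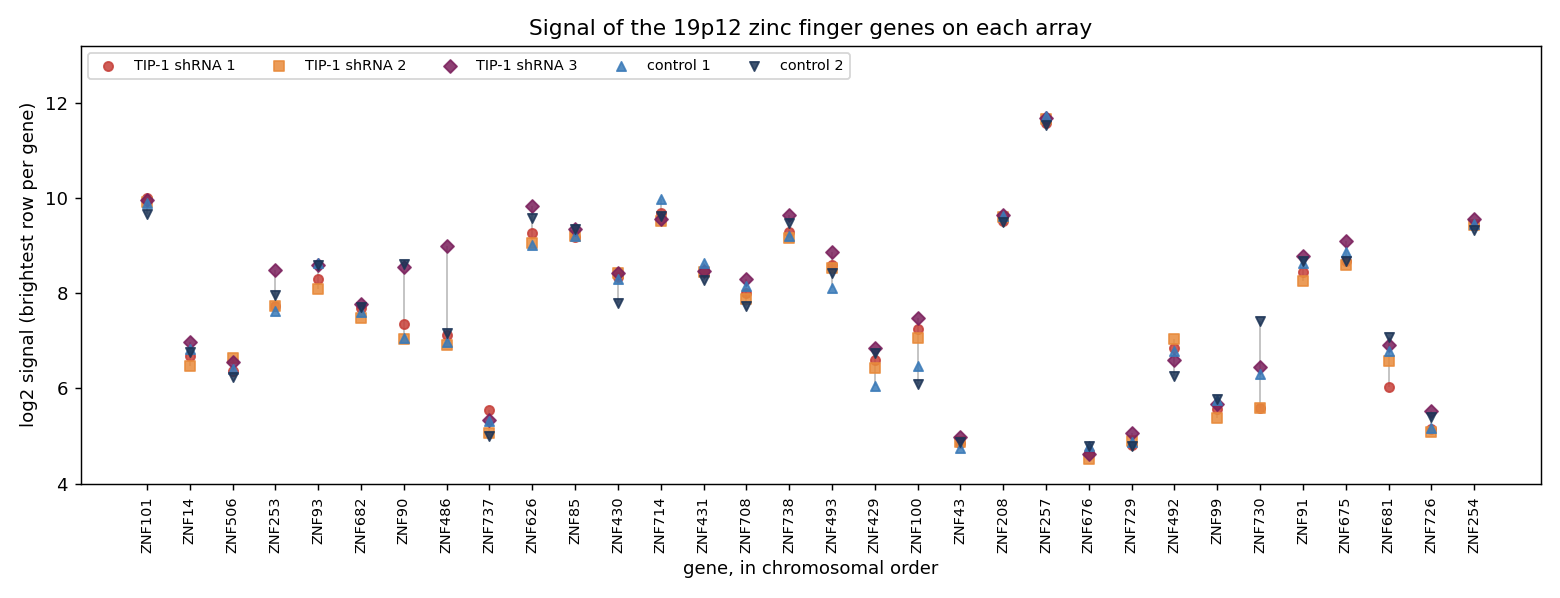
Log2 signal (vertical axis) of the 32 genes in chromosomal order (horizontal axis), with 1 point per array and a grey line from the lowest to the highest array. Points of most genes lie on top of each other, while ZNF90, ZNF486, ZNF100, ZNF730 and ZNF681 spread over at least 1 log2 unit. Probes differ between genes, so heights of different genes cannot be compared.

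The arrays gave 33297 log2 signals each, with medians of 7.95, 7.90 and 7.88 for TIP-1 shRNAs 1, 2 and 3 and of 7.96 and 7.98 for controls 1 and 2. The silenced gene, in a row it shares with the read-through transcript P2RX5-TAX1BP3, read 9.81, 9.61 and 9.55 with TIP-1 shRNA and 12.05 and 12.10 in the controls (limma adjusted p = 0.011). It was the 1 row past the threshold of 0.05 (0.003% of rows). The glioma label was checked against 7 markers: VIM, CD44 and EGFR were bright on every array (11.12 to 14.02), while GFAP, NES, SOX2 and OLIG2 lay between 7.05 and 8.14, near the array medians. Of 16 markers of leukocytes, endothelium, epithelium, oligodendrocytes and neurons, 14 had a row, with means from 6.43 to 8.21. None passed the test, but 3 had an unadjusted p under 0.05 and were lower with TIP-1 shRNA, namely EPCAM (log2 difference -0.53), SNAP25 (-0.28) and SYP (-0.22). All 3 neuron markers (SNAP25, SYP and RBFOX3) read lower in all 3 TIP-1 shRNA arrays than in either control, with a median difference of -0.28. The mean level of the 14 was 7.24, 7.13 and 6.98 in TIP-1 shRNAs 1, 2 and 3, against 7.26 and 7.25 in the controls. With no detection call in the table, no marker could be placed at 0.

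None of the 32 genes differed between the groups at an adjusted p under 0.05 (limma, Benjamini-Hochberg over all rows). At an unadjusted p under 0.05, 2 were higher with TIP-1 shRNA (ZNF100 and ZNF493) and 1 was lower (ZNF730). Over all genes that level was reached by 3.08% on the higher side and 2.94% on the lower side. The median difference of the 32 was 0.029 log2 units, against -0.0087 over all genes, with 19 above and 13 below 0. All 3 TIP-1 shRNA arrays lay above both controls for 4 genes, ZNF100, ZNF493, ZNF430 and ZNF101 (12.5% of the members, and 12.5% of all genes). They lay below both for 3, ZNF93, ZNF99 and ZNF676 (9.38%, against 14.1% of all genes). These shares were equal to or below those of all genes.

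**Figure D2:**
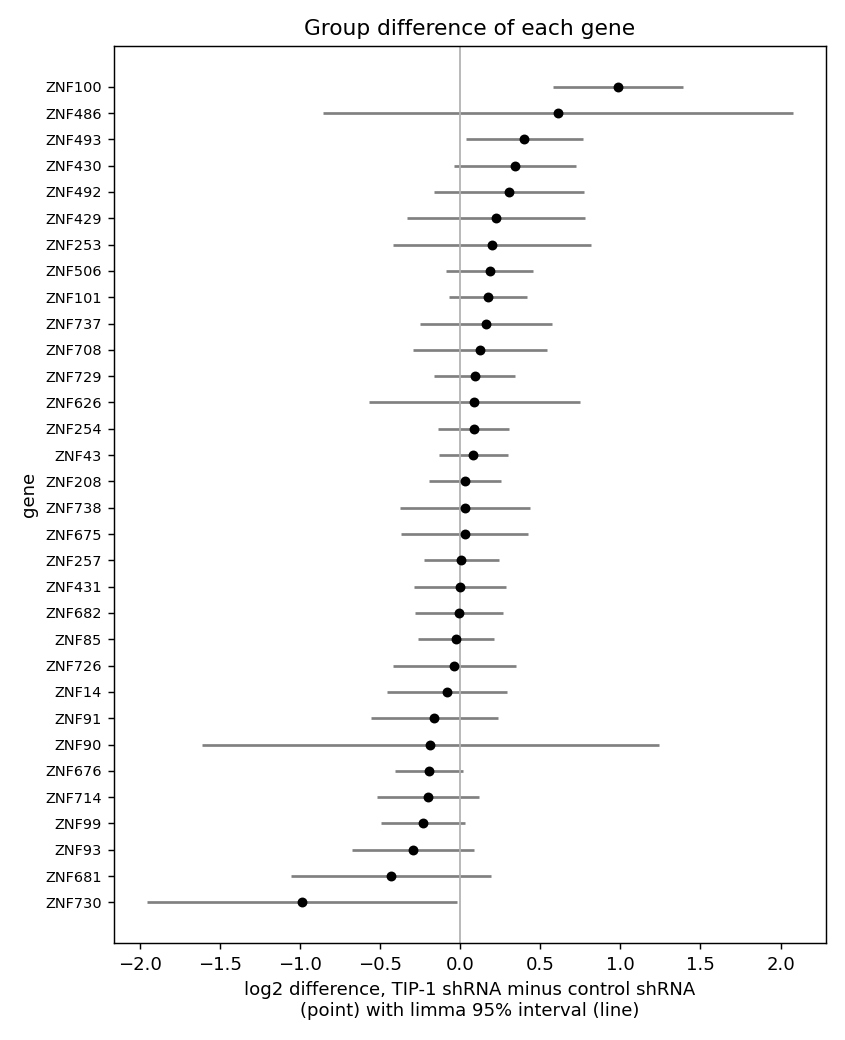
Log2 difference of each of the 32 genes (vertical axis, sorted) between TIP-1 shRNA and control shRNA arrays (horizontal axis, 3 against 2 arrays). Points are differences and lines are limma's 95% intervals. The interval of ZNF100 runs from 0.58 to 1.39, while the intervals of ZNF486 and ZNF90 are the widest.

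ZNF100 had the smallest p of the cluster. It read 7.25, 7.06 and 7.48 in TIP-1 shRNAs 1, 2 and 3, against 6.47 and 6.09 in controls 1 and 2. Every TIP-1 shRNA array was thus above both controls, and the lowest of them was 0.59 units above the higher control. The group means were 7.27 ± 0.21 (SD, n = 3) with TIP-1 shRNA and 6.28 ± 0.27 (SD, n = 2) in controls, a 1.98-fold difference (log2 0.98, SE 0.17, 95% interval 0.58 to 1.39, limma unadjusted p = 0.001, adjusted p = 0.707). With 1 array left out its log2 difference stayed between 0.79 and 1.17. The row was dim, at the 38.3, 35.7 and 43.6 percentiles of the TIP-1 shRNA arrays and the 25.3 and 20.3 percentiles of the control arrays.

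ZNF493 read 8.60, 8.53 and 8.88 in the 3 TIP-1 shRNA arrays, against 8.10 and 8.44 in the controls (log2 difference 0.40, SE 0.15, limma adjusted p = 0.707). The groups did not overlap, but TIP-1 shRNA 2 was only just above control 2, and the difference was 0.23 without control 1 and 0.57 without control 2. Its second, dimmer row read 6.70, 6.61 and 7.23 with TIP-1 shRNA, against 6.67 and 6.84 in controls, with overlapping groups and a difference of 0.09 (SE 0.20). ZNF430 read 8.34, 8.42 and 8.42 with TIP-1 shRNA, against 8.31 and 7.80 in controls. Its separation was narrow toward control 1, and its log2 difference of 0.34 (SE 0.16) was 0.09 without control 2 and 0.60 without control 1. ZNF101 read 9.99, 9.93 and 9.96 with TIP-1 shRNA, against 9.90 and 9.66 in controls, a difference of 0.18 (SE 0.10) that was 0.055 without control 2 and 0.30 without control 1.

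On the lower side, ZNF730 read 5.59, 5.58 and 6.46 in TIP-1 shRNAs 1, 2 and 3, against 6.31 and 7.42 in controls 1 and 2. TIP-1 shRNA 3 lay between the controls, so the groups overlapped. The means were 5.88 ± 0.50 (SD, n = 3) with TIP-1 shRNA and 6.87 ± 0.79 (SD, n = 2) in controls (log2 difference -0.99, SE 0.40, 95% interval -1.96 to -0.019, limma adjusted p = 0.707). The difference was -0.43 without control 2 and -1.55 without control 1. ZNF681 read 6.02, 6.59 and 6.91 with TIP-1 shRNA, against 6.79 and 7.09 in controls. Its groups overlapped as well, and its log2 difference of -0.43 (SE 0.26) was -0.19 without TIP-1 shRNA 1 and -0.28 without control 2.

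ZNF91 and ZNF93, named above for binding retroelements, did not pass the test between groups. ZNF91 read 8.44, 8.25 and 8.79 in the TIP-1 shRNA arrays, against 8.64 and 8.68 in controls, with overlap and a log2 difference of -0.16 (SE 0.16). ZNF93 read 8.30, 8.08 and 8.60 with TIP-1 shRNA, against 8.64 and 8.60 in controls. All 3 TIP-1 shRNA arrays were below both controls, yet TIP-1 shRNA 3 and control 2 differed by only 0.0011 log2 units (difference of the means -0.29, SE 0.16, limma adjusted p = 0.713). ZNF675, whose product is known as TIZ, an inhibitor of TRAF6 signalling, read 8.69, 8.60 and 9.09 with TIP-1 shRNA, against 8.86 and 8.68 in controls (difference 0.03, SE 0.16).

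The members also differed between single cultures. They were chosen with earlier results of these data known, so the shares given here describe the cluster and test nothing. Of the 32 genes, 5 spanned at least 1 log2 unit over the 5 arrays (15.6%), against 2.58% of all genes, 6.44% of 202 other chromosome 19 ZNF genes and 2.02% of 248 ZNF genes elsewhere. The median span was 0.50 log2 units in the cluster, 0.37 in the other chromosome 19 ZNF genes, 0.28 in ZNF genes elsewhere and 0.29 over all genes. The 5 were among 17 members with a mean signal below the median of all rows. Among all genes that dim, 2.08% spanned 1 unit. ZNF681, at 1.06, lay just past that limit and ZNF253, at 0.87, just short of it.

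The widest span was that of ZNF486. It read 7.13, 6.92 and 9.00 in TIP-1 shRNAs 1, 2 and 3, against 6.97 and 7.17 in controls 1 and 2. TIP-1 shRNA 3 stood alone, 1.93 log2 units above the control mean, whereas the other 4 arrays lay within 0.25 units of each other. The highest and lowest arrays differed 4.22-fold. The other 4 arrays placed the row at the 33.0 to 36.4 percentiles of their signals and TIP-1 shRNA 3 at the 65.0 percentile. The group difference of 0.61 (SE 0.60) was -0.048 without TIP-1 shRNA 3 and 0.99 without TIP-1 shRNA 2. It was the 1 member past 2 units (0.299% of all genes were), but its lowest array was not in the lower quartile. No member met the stricter mark of a switch, a span of 2 units from the lower quartile of an array to above the median of another, which 7 of all genes did (0.038%).

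ZNF90, the neighbouring member on the chromosome, read 7.34, 7.05 and 8.55 in TIP-1 shRNAs 1, 2 and 3, against 7.05 and 8.62 in controls 1 and 2. It was thus high in 1 culture of each group, and the controls alone differed by 1.57 log2 units. Its group difference of -0.19 (SE 0.59) was 0.60 without control 2, -0.97 without control 1, 0.11 without TIP-1 shRNA 2, -0.64 without TIP-1 shRNA 3 and -0.034 without TIP-1 shRNA 1. The controls differed by at least 0.5 units for 6 members (18.8%), against 3.21% of all genes. The share was 6.93% in other chromosome 19 ZNF genes and 3.63% in ZNF genes elsewhere. The 6 members included ZNF90 and ZNF730, both brighter in control 2, and ZNF430, brighter in control 1.

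The order of ZNF90, with TIP-1 shRNA 3 and control 2 as the 2 highest arrays, recurred in the cluster. This order was picked after the values were seen and is given as a description. It held for 13 of the 32 genes (40.6%), against 14.1% of all genes. The 13 were, in chromosomal order, ZNF253, ZNF682, ZNF90, ZNF486, ZNF626, ZNF85, ZNF738, ZNF429, ZNF43, ZNF730, ZNF91, ZNF681 and ZNF726. For some of them control 2 was only just above the next array. ZNF486 read 7.17 in control 2 and 7.13 in TIP-1 shRNA 1, and ZNF43 read 4.88 in control 2 and 4.87 in TIP-1 shRNA 2. ZNF626 read 9.26, 9.05 and 9.84 with TIP-1 shRNAs 1, 2 and 3, against 9.01 and 9.58 in controls 1 and 2, and its second row, at 6.69, 6.77 and 6.93 with TIP-1 shRNA against 6.77 and 6.61 in controls, did not repeat that order. ZNF253, whose older symbol is BMZF1, read 7.73, 7.74 and 8.48 with TIP-1 shRNA, against 7.62 and 7.96 in controls. Neither separated the groups. The order was nearly as frequent in other chromosome 19 ZNF genes (78 of 202, 38.6%) and held for 54 of 248 ZNF genes elsewhere (21.8%), so it was not limited to 19p12.

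**Figure D3:**
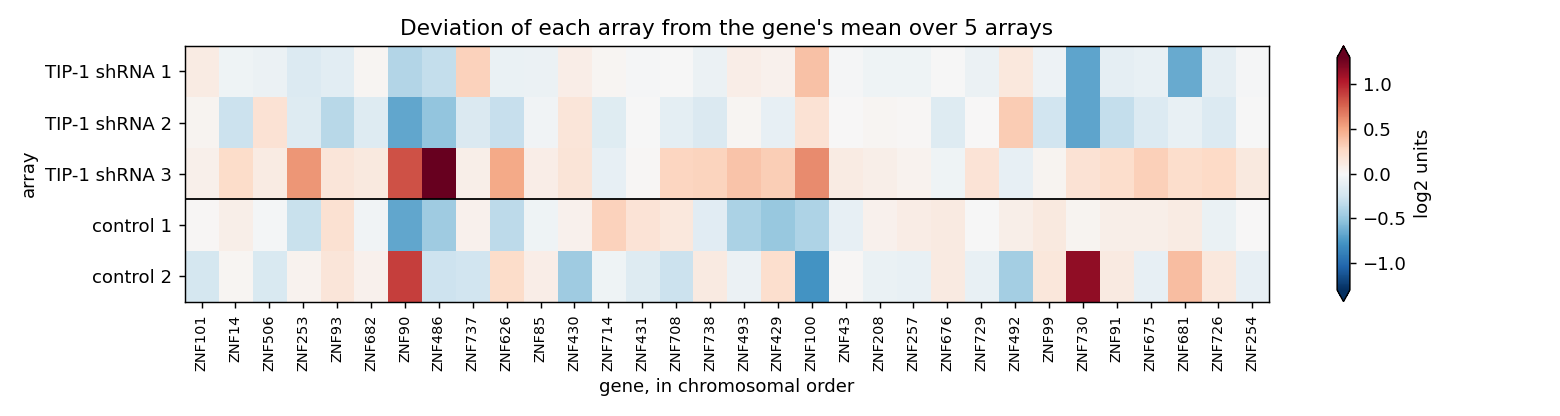
Deviation of each array (rows, TIP-1 shRNA above the line and controls below it) from each gene's mean over the 5 arrays in log2 units (colour, limited to 1.3 units either way), with the 32 genes in chromosomal order (columns). ZNF90 and its neighbour ZNF486 are high in TIP-1 shRNA 3, ZNF90 and ZNF730 are high in control 2, and ZNF100 is low in both controls.

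TIP-1 shRNA 3 was often the array with the strongest signal. It was the highest of the 5 arrays for 18 of the 32 genes (56.2%, against 27.1% of all genes) and the lowest for 0 (against 32.5% of all genes). TIP-1 shRNA 3 was also the highest for 98 of 202 other chromosome 19 ZNF genes (48.5%). Among 248 ZNF genes elsewhere it was the highest for 90 (36.3%). It was the lowest for 28 of the 202 and 41 of the 248. In the cluster, TIP-1 shRNA 2 was the lowest for 13 genes (40.6%, against 16.3% of all genes), and control 2 for 12 (37.5%, against 19.1%). The median difference of the 32 genes from the control mean was -0.039 in TIP-1 shRNA 1, -0.077 in TIP-1 shRNA 2 and 0.17 in TIP-1 shRNA 3. The same medians over all genes were 0.0011, -0.014 and -0.018. The 3 values share the controls. For the 202 other chromosome 19 ZNF genes they were -0.042, -0.041 and 0.15, close to those of the cluster. An alternative fit with array weights counts arrays that vary more for less. There TIP-1 shRNA 3 had the lowest weight, 0.405, against 0.89 to 2.785 for the other arrays.

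Set against both controls one by one, TIP-1 shRNA 1 lay above both for 6 members and below both for 9 (32.2% and 31.2% of all genes). TIP-1 shRNA 2 lay above both for 7 and below both for 14 (30.8% and 37.7% of all genes). TIP-1 shRNA 3 lay above both for 21 and below both for 4 (35.5% and 41.9% of all genes). At least 0.5 log2 units above the control mean were ZNF100 in TIP-1 shRNA 1 (1 gene, 0.858% of all genes), ZNF100 and ZNF492 in TIP-1 shRNA 2 (2 genes, 1.01%) and 6 genes in TIP-1 shRNA 3 (3.69%). The 6 were ZNF486, ZNF100, ZNF90, ZNF253, ZNF493 and ZNF626. At least 0.5 units below it were ZNF730 and ZNF681 in TIP-1 shRNA 1 (2 genes, 1.22%), ZNF93, ZNF90 and ZNF730 in TIP-1 shRNA 2 (3 genes, 1.65%) and 0 genes in TIP-1 shRNA 3 (1.55%). ZNF100 was the 1 member more than 0.5 units from the control mean in the same direction in all 3 arrays. How many of all genes did so was not counted, and the 3 differences share the controls.

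A leukocyte marker ran roughly opposite to the ZNF90 order. PTPRC read 8.39, 7.75 and 6.84 in TIP-1 shRNAs 1, 2 and 3, against 8.65 and 7.32 in controls 1 and 2, the only one of the 14 markers of other cell types to span 1 log2 unit. The other leukocyte markers with a row were flat, CD3E between 6.66 and 6.83 and CD14 between 7.33 and 7.62. Of the epithelial markers, EPCAM was lowest in TIP-1 shRNA 3 (6.55, 6.22 and 5.88 with TIP-1 shRNA, against 6.75 and 6.75 in controls), as was KRT5 (7.58, 7.72 and 7.35 with TIP-1 shRNA, against 7.59 and 7.56 in controls). CDH1 was instead highest there (6.77, 6.75 and 6.78 with TIP-1 shRNA, against 6.74 and 6.64 in controls). The part of these differences in the zinc finger values was not tested.

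**Figure D4:**
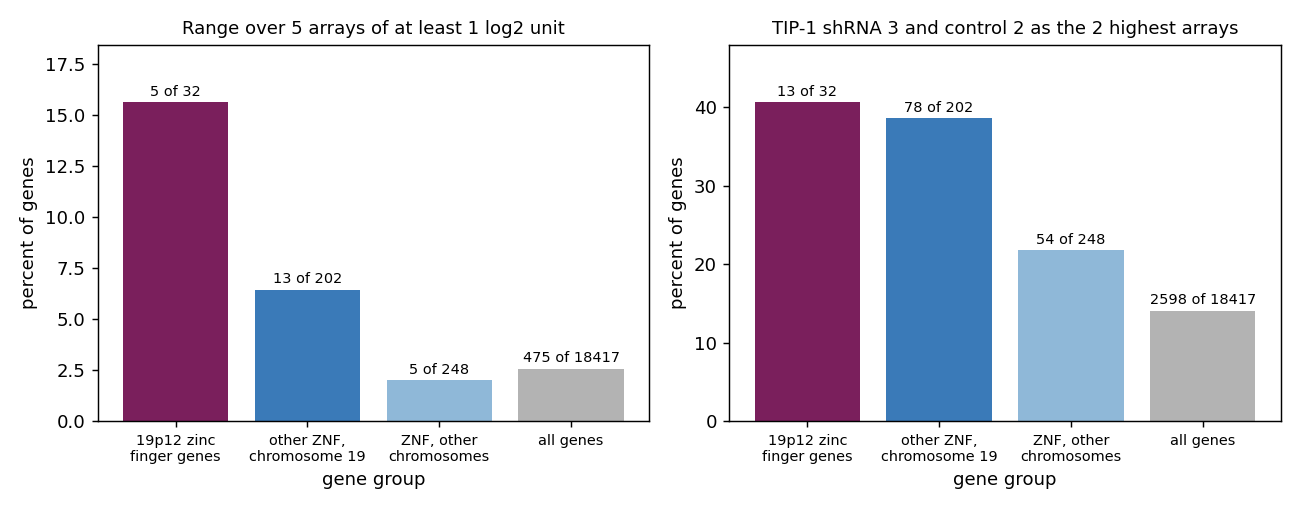
Share of genes (vertical axis, percent) with a span over the 5 arrays of at least 1 log2 unit (left) and with TIP-1 shRNA 3 and control 2 as the 2 highest arrays (right), for the 19p12 genes, other chromosome 19 ZNF genes, ZNF genes on other chromosomes and all genes. Counts stand above the bars. The 19p12 genes were chosen with earlier results of these data known. The 19p12 bar is the tallest in both panels, but on the right the other chromosome 19 genes come close to it (38.6% against 40.6%).

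Several members were steady or dim. The row standing for ZNF257 was the brightest, at 11.58, 11.66 and 11.69 with TIP-1 shRNA, against 11.73 and 11.54 in controls, a difference of 0.0070 (95% interval -0.23 to 0.24). ZNF714 read 9.70, 9.51 and 9.57 with TIP-1 shRNA, against 9.97 and 9.62 in controls, with overlap. Its log2 difference of -0.20 (SE 0.13) was -0.023 without control 1 and -0.38 without control 2. Among the rows standing for each gene, the 3 dimmest were those of ZNF676, ZNF43 and ZNF729. ZNF676 read 4.67, 4.51 and 4.62 with TIP-1 shRNA, against 4.80 and 4.79 in controls. ZNF43 read 4.85, 4.87 and 4.97 with TIP-1 shRNA, against 4.76 and 4.88 in controls. ZNF729 read 4.81, 4.89 and 5.06 with TIP-1 shRNA, against 4.88 and 4.79 in controls. Of these 3, only ZNF676 had its groups apart, by 0.12 units or more, with a log2 difference of -0.19 (SE 0.09, limma adjusted p = 0.707). Rows of 6 members lay in the lower quartile of all 5 arrays (18.8%, against 11.8% of all genes), the other 3 being ZNF737, ZNF99 and ZNF726. The smallest spans were those of ZNF208 (0.16) and ZNF85 (0.17).

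How bright a gene appeared depended on the row. Of the 32 genes, 4 had more than 1 row. The rows of ZNF257 differed by 6.09 log2 units in mean signal, those of ZNF208 by 5.13, those of ZNF626 by 2.59 and those of ZNF493 by 1.70. The dim ZNF257 row read 5.50, 5.56 and 5.34 with TIP-1 shRNA, against 5.83 and 5.51 in controls (difference -0.20, SE 0.13), with TIP-1 shRNA 2 between the controls. The dimmest ZNF208 row read 4.50, 4.61 and 4.69 with TIP-1 shRNA, against 4.27 and 4.15 in controls. There the groups were apart (log2 difference 0.39, SE 0.09, limma unadjusted p = 0.006, adjusted p = 0.707), while the brighter ZNF208 rows differed by 0.030 and 0.049. Since members are close relatives, a row can collect signal from several of them. Probe sequences were not used here, so that share was not tested and each row's gene is uncertain to that extent.

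**Figure D5:**
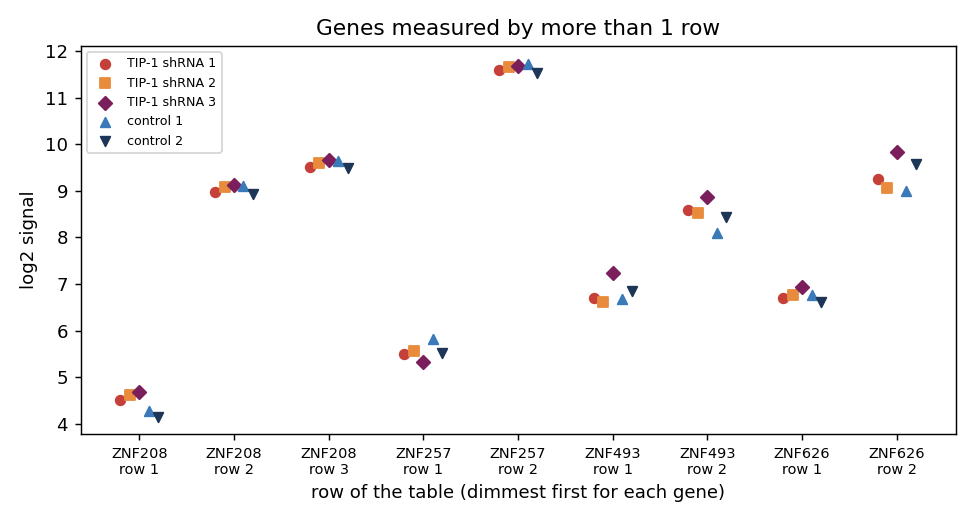
Log2 signal (vertical axis) on each of the 5 arrays for the 9 rows of the 4 genes measured by more than 1 row (horizontal axis, dimmest row first for each gene). Rows of ZNF257 lie near 5.55 and 11.64 on average and those of ZNF208 near 4.44, 9.04 and 9.58.

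Rows annotated to several genes were kept apart. A row shared by ZNF730, ZNF728, ZNF676, ZNF430, ZNF208, ZNF99, ZNF85 and ZNF43 read 13.36, 13.39 and 13.36 with TIP-1 shRNA, against 13.44 and 13.15 in controls. The groups overlapped (difference 0.07, SE 0.11). A row shared by ZNF98, ZNF492 and ZNF85 read 6.01, 6.07 and 6.03 with TIP-1 shRNA, against 6.17 and 5.91 in controls (difference -0.0019, SE 0.10). Neither showed the between-culture spread seen for ZNF730 alone.

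Genes that do not encode zinc finger proteins but lie among the members were few. Of these, 3 had a row, CCNYL6, GOLGA2P9 and RPSA2, with spans of 0.43, 0.49 and 0.61 log2 units and a median difference of -0.15. None had TIP-1 shRNA 3 and control 2 as the 2 highest arrays.

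The machinery through which KRAB proteins repress was read from a list of co-repressors and chromatin enzymes. Of 26 listed genes 24 had a row, and 0 passed the test (none at an unadjusted p under 0.05 either). Their median difference was -0.024, near 0 and of either sign when 1 array was left out (-0.015 to 0.0061), and none spanned 1 log2 unit. TRIM28, the co-repressor bound by KRAB domains, read 12.36, 12.40 and 12.35 with TIP-1 shRNA, against 12.30 and 12.49 in controls (log2 difference -0.022, 95% interval -0.25 to 0.20). SETDB1, the methyltransferase it recruits, read 10.30, 10.38 and 10.44 with TIP-1 shRNA, against 10.25 and 10.21 in controls. The groups were apart for SETDB1, but the difference of 0.14 (95% interval -0.063 to 0.35) did not pass.

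Of the other list members, those with the smallest p were the chromatin remodeller SMARCAD1, the deacetylase HDAC1 and MPHOSPH8, a subunit of the HUSH silencing complex. SMARCAD1 read 9.50, 9.57 and 9.65 with TIP-1 shRNA, against 9.40 and 9.41 in controls (difference 0.17, SE 0.09). HDAC1 read 12.39, 12.41 and 12.41 with TIP-1 shRNA, against 12.31 and 12.26 in controls (difference 0.12, SE 0.08). Both had all TIP-1 shRNA arrays above both controls, as did PPHLN1, another HUSH subunit (difference 0.11, SE 0.09). MPHOSPH8 read 9.05, 8.92 and 9.15 with TIP-1 shRNA, against 9.06 and 8.47 in controls, where control 2 alone was low (difference 0.28, SE 0.18). The list's 4 genes above both controls were 16.7% of it, against 12.5% of all genes. Below both controls was 1 gene, CBX1 (4.17%, against 14.1% of all genes).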

How the data were processed

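Total RNA was hybridised to 1 Affymetrix whole-transcript array per sample. The deposited values are log2 signals that the authors made with the Affymetrix Exon Array Computational Tool, per the design text. How background, probe summary and scaling were handled is not given in the sources used here. Array quantiles nearly coincided, with lower quartiles from 6.35 to 6.45 and upper quartiles from 9.77 to 9.83, so values were used as deposited. TIP-1 shRNA 3 had the lowest lower quartile and the highest upper quartile. Row identifiers matched the annotation of a gene-level array, although the design text names the exon version, so each row was read as 1 transcript cluster. That annotation can be old. None of its 19460 single symbols changed where the gene identifier could be looked up.

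Differences, TIP-1 shRNA minus control shRNA, were fitted over all 33297 rows with limma 3.58.1 in R 4.3.3 (lmFit, eBayes, two-sided). The p-values were adjusted by Benjamini and Hochberg's method across every row, and the fit was tested on simulated data. Summaries used Python 3.11.15. With no repeated samples, p-values rest on how far control clones and shRNAs differ among themselves, and the number of arrays limits the precision. Values in every array were given for the silenced gene, for members spanning at least 1 log2 unit, for members with an unadjusted p under 0.05 or with separated groups and a difference of at least 0.3, and for the 3 brightest and 3 dimmest. Other genes were named after their values were seen, apart from TRIM28, SETDB1 and the 4 list members with the smallest p. Members and lists were chosen with earlier results of these data known. Alternatives were quantile normalization, median centring, bright rows only, a trended robust fit, array weights, a replicate block, other rows per gene and leaving out each array.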

Additional observations from a re-analysis of the deposited data

How the results depend on the processing

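No member passed the adjusted threshold under any alternative run. For ZNF100 the limma adjusted p lay between 0.119 (replicate block) and 0.980 (without control 2), with a positive difference throughout. It was not tested among bright rows, which it does not reach. The number of all rows past the threshold, 1 as deposited, was 2 with array weights, 15 with the replicate block, and 0 to 6 when 1 array was left out. The labels give no pairing. Deviations from the group means correlated at 0.049 between the arrays numbered 1 and at -0.053 between those numbered 2, so no pairs were assumed. The block leaves TIP-1 shRNA 3 out of the difference, and without a control the remaining one is assumed to vary like the TIP-1 shRNA arrays.

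Members with all TIP-1 shRNA arrays above both controls numbered 5 to 13 on leaving out single arrays, 13 without control 1 and 8 without control 2, as fewer arrays separate more easily. Those below both numbered 3 to 8 (7 without control 1, 6 without control 2, 8 without TIP-1 shRNA 3), 1 among bright rows and 1 with rows of several symbols added. Members spanning 1 log2 unit numbered 3 to 5 on leaving out single arrays (3 without control 2) and 0 among bright rows, which hold none of these 5. The median difference of members ran from -0.050 to 0.10 when 1 array was left out. Median centring shifts every difference by the same amount, and with it the medians became 0.073 for ZNF genes on other chromosomes and 0.037 for the KRAB repression list. That list's median was 0.0088 with array weights and -0.015 to 0.0061 when 1 array was left out. The median of the 3 other genes in the cluster ran from -0.19 to -0.010 when 1 array was left out.

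Of 174 values of 13 named genes, 162 kept their direction and side of the threshold and 12 changed sign. ZNF257 became -0.023 with quantile normalization, -0.016 with the block, -0.099 with the mean of its rows and -0.20 with its dimmest row, an alternative chosen after seeing the data, and ran from -0.089 to 0.10 when 1 array was left out. ZNF486 became -0.048 with the block and 0.099 with array weights, and ran from -0.048 to 0.99 when 1 array was left out. ZNF90 became -0.57 with array weights and ran from -0.97 to 0.60 when 1 array was left out. ZNF676 and ZNF730 became 0.074 when rows of several symbols stood for them. Averaged rows had no p. Without a detection call, how far dim rows lie above background is unknown.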
